A study of Mus musculus with 8 samples.

Results

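The genes described here are 9 transcripts of spinal neurons, Slc17a6, Gad1, Gad2, Slc32a1, Slc6a5, Glra1, Elavl4, Map2 and Snap25. They were taken by name from a table of 27179 genes counted by mRNA sequencing of mouse spines at the E18.5 stage of embryonic development. All 9 were among the 18104 genes that passed the filter on low counts. Each of 8 libraries came from spine, with 2 libraries each from male Pax1-Enh KO, male WT, female Pax1-Enh KO and female WT embryos. The labels give a genotype and a sex, and give neither the strain nor whether a library was made from 1 embryo. They do not say whether the 2 replicates of a group were separate embryos, so every p-value below measures the spread between these libraries. The list was selected on values of these data, the KO minus WT differences in females, for which an earlier account of the counts had named Elavl4, Slc17a6, Gad2 and Map2. The female comparison, and the 2 others that contain it (the average over both sexes and the difference between the sexes' KO effects), are therefore given as descriptions with no p-value for these genes. Earlier results of these data were known when the genes were chosen, so the male p-values are descriptive as well.

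Neurons of the spinal cord signal mainly with glutamate, GABA and glycine. Glutamatergic neurons load their synaptic vesicles through VGLUT2, the product of Slc17a6. Inhibitory neurons make GABA with the enzymes GAD67 (Gad1) and GAD65 (Gad2), take up glycine through GlyT2 (Slc6a5), and load both transmitters into vesicles through one transporter, VGAT (Slc32a1). Glra1 encodes a subunit of the glycine receptor that is characteristic of the more mature spinal cord. Elavl4 encodes a neuronal RNA-binding protein, Map2 a microtubule protein of dendrites, and Snap25 a SNARE protein needed for vesicle release, and these 3 are not tied to one transmitter. Slc17a6, Elavl4, Map2 and Snap25 are also used by neurons of the dorsal root ganglia, so a spine sample can carry them from more than one source.

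The genes lie on 5 chromosomes of the mm10 (GRCm38.p6) assembly. Map2 is at chr1:66175202-66442583, Elavl4 at chr4:110203737-110351939, Slc6a5 at chr7:49906984-49963864, Slc17a6 at chr7:51621830-51671126 and Glra1 at chr11:55514239-55608198. The other 4 share chromosome 2 with Pax1, the gene whose enhancer the deletion is named for, at chr2:147361930-147375049. Snap25 (chr2:136713439-136782428) is 10.6 Mb from Pax1, Slc32a1 (chr2:158607260-158615747) is 11.2 Mb away, Gad1 (chr2:70561303-70602014) is 76.8 Mb away and Gad2 (chr2:22621015-22693877) is 124.7 Mb away. Gad1 overlaps the antisense gene Gad1os, which had 0 to 12 counts per library, and Slc32a1 overlaps Gm14204, which had 2.53 to 8.17 CPM. Predicted or small RNA genes also overlap Slc17a6, Gad2, Glra1, Map2 and Snap25. The strand setting of the counting is not given in the sources used here, so reads of such overlapping pairs may be shared.

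RefSeq start windows (250 bases upstream of an annotated start, GRCm38.p6) were found for 7 of the 9 genes, 12 windows in all. They were searched on both strands for the TATA box as TATAAA, the CAAT box as CCAAT, the GC box as GGGCGG, a homeodomain core as TAATTA, and a stretch of the neuron-restrictive silencer element as GGACAGC, motifs that do not overlap in the windows shown. The homeodomain core was in 3 of these windows, 1 of Slc17a6 and 2 overlapping ones of Elavl4, and in 4.84% of 32851 windows of all genes. The GC box was in windows of Gad1, Map2 and Slc17a6 (32.7% of all windows), the CAAT box in windows of Gad2 and Elavl4 (33.8%), the TATA box in that of Gad1 (12.4%) and the silencer stretch in those of Gad2 and Map2 (5.28%). A match describes letters only. For Slc17a6, Elavl4 and Slc6a5, 1 window each is shown, with every searched motif in capitals. Those shown of Slc17a6 and Elavl4 hold the homeodomain core, which other windows of both genes lack. The windows of Gad1 and Map2, genes with the arrangement of Slc17a6 across the libraries, lack it too. A link between the core and the levels was not tested. The Slc17a6 window is on the plus strand at chr7:51624387-51624636, that of Elavl4 on the minus strand at chr4:110287528-110287777, and that of Slc6a5 on the plus strand at chr7:49911450-49911699. None of the 3 overlaps an annotated exon, and that of Slc6a5 holds none of the 5 searched motifs.
Slc17a6: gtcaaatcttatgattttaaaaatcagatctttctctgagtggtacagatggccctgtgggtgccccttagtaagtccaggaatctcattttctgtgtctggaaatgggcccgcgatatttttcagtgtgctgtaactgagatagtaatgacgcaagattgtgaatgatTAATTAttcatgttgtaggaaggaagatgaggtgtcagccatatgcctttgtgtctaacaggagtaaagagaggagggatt
Elavl4: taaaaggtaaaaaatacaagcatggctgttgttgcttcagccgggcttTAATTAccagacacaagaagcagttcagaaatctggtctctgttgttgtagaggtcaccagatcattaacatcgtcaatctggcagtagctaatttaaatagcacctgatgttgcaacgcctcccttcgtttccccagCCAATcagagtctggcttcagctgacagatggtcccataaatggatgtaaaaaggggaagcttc
Slc6a5: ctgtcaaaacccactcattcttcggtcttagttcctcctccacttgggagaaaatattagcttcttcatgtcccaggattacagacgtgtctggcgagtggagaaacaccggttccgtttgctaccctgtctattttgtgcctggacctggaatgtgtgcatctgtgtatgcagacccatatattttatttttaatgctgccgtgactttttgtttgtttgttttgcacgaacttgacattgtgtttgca

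Pax1 itself was at 28.3 and 18.9 CPM in male KO, against 20.4 and 17.0 CPM in male WT, and in female KO at 30.4 and 19.9 CPM, against 27.0 and 18.6 CPM in female WT. The groups overlapped in each sex, and as the deletion is of an enhancer, this count does not check the genotype labels. Several libraries stood apart in ways that touch the values below. Totals were 59722279 to 67575728 counts in KO and 35181518 to 48021848 in WT libraries, so depth and genotype cannot be told apart. The share of counts on mitochondrial genes was 4.56% and 15.6% in male KO, 18.3% and 20.9% in male WT, 13.6% and 4.66% in female KO and 5.55% and 7.27% in female WT. Summed adipocyte transcripts (12 genes) were highest in male WT 1 and female WT 2, at 5900 and 6119 CPM, against 386 to 1119 CPM in the other libraries, and summed pancreatic transcripts (10 genes) were 2000 CPM in female WT 1 and at most 7.29 CPM elsewhere. Cervical and brachial Hox genes summed to 62.0 and 51.6 CPM in male KO against 125.2 and 154.8 CPM in male WT, and to 87.6 and 85.7 CPM in female KO against 97.6 and 95.1 CPM in female WT. Neuron markers were present in every library (Tubb3 at 291.7 to 558.0 CPM, Rbfox3 at 26.8 to 48.7 CPM), whereas the cortical neuron regulator Tbr1 stayed at 0.166 to 0.484 CPM. Fewer neurons and less transcript per neuron cannot be told apart in spine libraries.

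Ranked per length, as CPM per kilobase of the longest annotated transcript and averaged over the 8 libraries, Map2 was the most abundant of the 9 genes at 49.9, followed by Snap25 at 33.9, Slc17a6 at 21.5 and Elavl4 at 15.8. Gad1 followed at 10.02 and Slc32a1 at 8.32, then Gad2 at 2.52, Slc6a5 at 1.20 and Glra1 at 0.488. The ranges of neighbours over the libraries overlapped at each step of this order except between Slc32a1 and Gad2, and within single libraries the order was the same in 8 of 8 at every step except 1. The exception was Gad1 and Slc32a1, where Gad1 was the higher in 5 of 8 libraries. Glra1, at 16 to 187 counts per library, was the least precisely counted. Its lowest value, 0.395 CPM in male WT 1, has an exact 95% Poisson interval of 0.226 to 0.641 CPM, which covers counting error only.

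**Figure D1:**
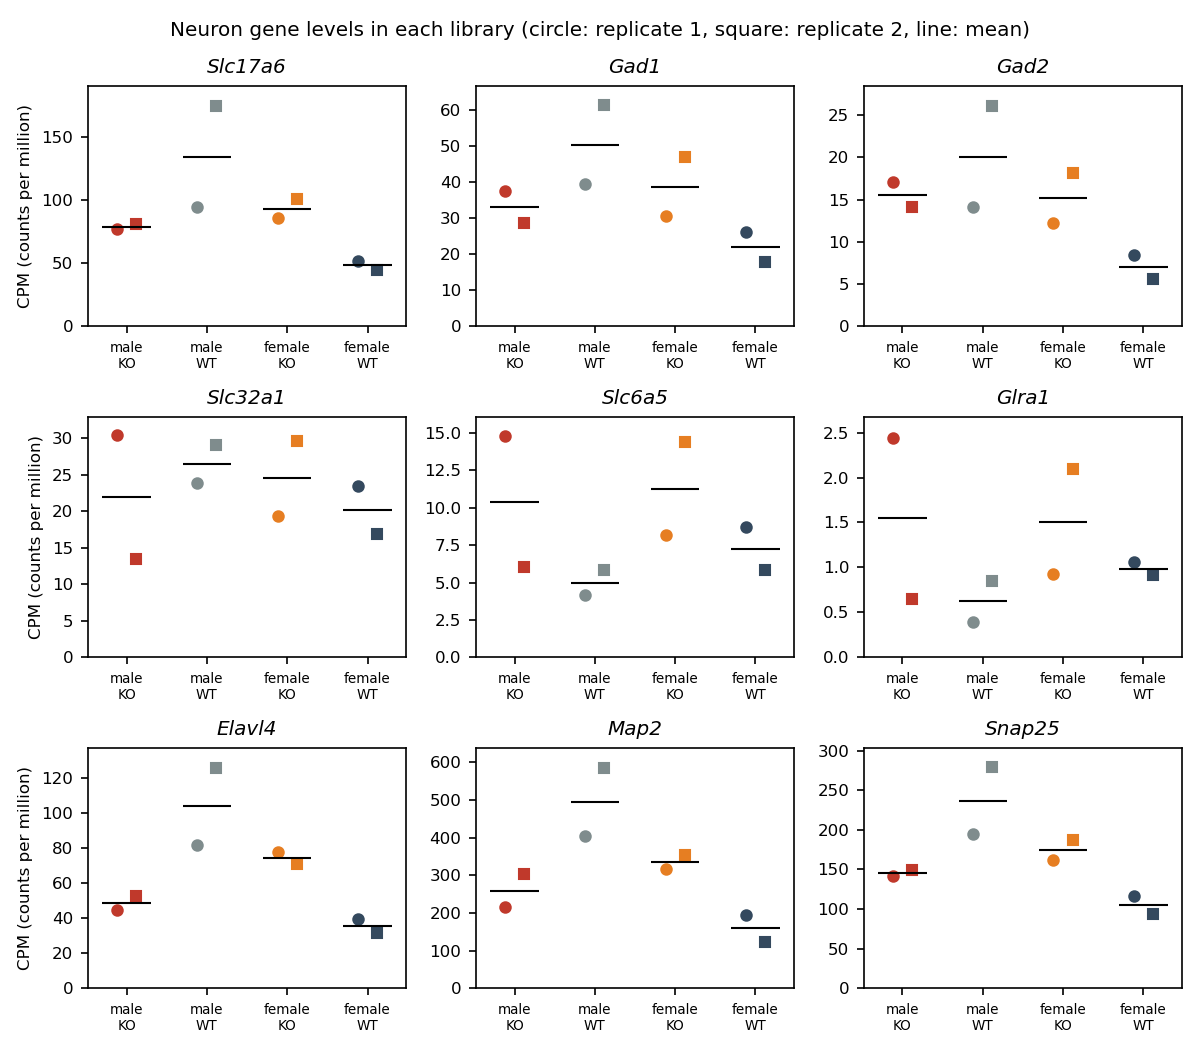
CPM (linear axis from 0, own scale per gene) of each gene in the 8 libraries, by group, with circles for replicate 1, squares for replicate 2 and a line at the group mean. Male WT 2 is the highest point and female WT 2 the lowest for Slc17a6, Gad1, Gad2, Elavl4, Map2 and Snap25, while Slc6a5 and Glra1 are highest in male KO 1 and female KO 2.

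The vesicular glutamate transporter gene Slc17a6 was lower in male KO than in male WT spines and higher in female KO than in female WT spines. Its level was 77.0 and 81.3 CPM in male KO, against 94.3 and 175.0 CPM in male WT. In females it was 85.6 and 101.0 CPM in KO, against 52.0 and 44.7 CPM in WT. The genotypes did not overlap in either sex, and in opposite directions. The log2 fold change, KO minus WT, was -0.77 (SE 0.30, adjusted p = 0.309) in males and 0.95 (SE 0.30) in females, and without male WT 2 the male value was -0.25. Among the WT libraries alone the males were 94.3 and 175.0 CPM and the females 52.0 and 44.7 CPM, whereas the 4 KO libraries lay between 77.0 and 101.0 CPM.

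Of the genes of the GABA-making enzymes, Gad1 had the arrangement of Slc17a6 in both sexes, whereas Gad2 had it in females and overlapped between the genotypes in males. Gad1 was at 37.5 and 28.6 CPM in male KO, against 39.5 and 61.3 CPM in male WT, and the nearest libraries of the male genotypes were 37.5 and 39.5 CPM. It was at 30.5 and 46.9 CPM in female KO, against 26.2 and 18.0 CPM in female WT. Its log2 fold change was -0.61 (SE 0.33, adjusted p = 0.397) in males and 0.81 (SE 0.33) in females. The male value was -0.25 without male WT 2 and -0.996 with the mitochondrial share as a covariate, and the female value was 0.47 without female KO 2. Gad2 was at 17.0 and 14.1 CPM in male KO, against 14.1 and 26.1 CPM in male WT, so the male groups overlapped. It was at 12.2 and 18.1 CPM in female KO, against 8.44 and 5.57 CPM in female WT, with no overlap. The log2 fold change of Gad2 was -0.36 (SE 0.36, adjusted p = 0.626) in males and 1.11 (SE 0.36) in females, and the male value was 0.15 without male WT 2 and -0.68 with the mitochondrial share as a covariate.

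Slc32a1, the transporter that both inhibitory transmitters share, overlapped between the genotypes in each sex. It was at 30.5 and 13.5 CPM in male KO, against 23.8 and 29.1 CPM in male WT, and in female KO at 19.3 and 29.7 CPM, against 23.4 and 16.8 CPM in female WT. The spread between the 2 male KO libraries was larger than the difference between any group means. The log2 fold change was -0.27 (SE 0.39, adjusted p = 0.758) in males and 0.28 (SE 0.39) in females. It changed sign without male KO 2 in males (0.21) and without female KO 2 in females (-0.06). With the mitochondrial share as a covariate it was -1.06 (SE 0.29, adjusted p = 0.220) in males and 0.45 (SE 0.23) in females.

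The glycine transporter gene Slc6a5 and the glycine receptor gene Glra1 did not follow the other genes, and had positive KO minus WT values in both sexes. Slc6a5 was at 14.8 and 6.02 CPM in male KO, against 4.17 and 5.84 CPM in male WT, so the male groups did not overlap but male KO 2 and male WT 2 were close. In females it was at 8.16 and 14.4 CPM in KO, against 8.71 and 5.82 CPM in WT, with overlap. Glra1 was at 2.44 and 0.650 CPM in male KO, against 0.395 and 0.854 CPM in male WT, and in female KO at 0.928 and 2.09 CPM, against 1.06 and 0.914 CPM in female WT. For both genes male KO 1 and female KO 2 stood above all other libraries, and the other KO library of each sex lay within or close to the WT range. The log2 fold changes of Slc6a5 were 1.06 (SE 0.46, adjusted p = 0.336) in males and 0.63 (SE 0.46) in females. Those of Glra1 were 1.31 (SE 0.69, adjusted p = 0.391) in males and 0.62 (SE 0.68) in females. Male KO 1 and female KO 2 are also the libraries with the lowest mitochondrial shares, 4.56% and 4.66%. With that share as a covariate the male values were 0.12 for Slc6a5 and -0.08 for Glra1, and the female values were 0.81 and 0.79. Without male KO 1 the male values were 0.27 and 0.06, and without female KO 2 the female values were 0.17 and -0.09.

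The 3 genes that mark neurons of every transmitter type repeated the arrangement of Slc17a6. Elavl4 was at 44.7 and 52.7 CPM in male KO, against 81.7 and 125.9 CPM in male WT, and in female KO at 77.5 and 71.1 CPM, against 39.6 and 31.7 CPM in female WT. Map2 was at 216.0 and 302.8 CPM in male KO, against 403.2 and 584.5 CPM in male WT, and in female KO at 317.0 and 352.8 CPM, against 195.9 and 124.2 CPM in female WT. Snap25 was at 141.5 and 148.7 CPM in male KO, against 194.2 and 279.5 CPM in male WT, and in female KO at 161.4 and 187.6 CPM, against 115.9 and 93.5 CPM in female WT. In each of the 3, both KO libraries were below both WT libraries in males and above them in females. Elavl4 had log2 fold changes of -1.09 (SE 0.27, adjusted p = 0.235) in males and 1.06 (SE 0.27) in females. Map2 had -0.93 (SE 0.35, adjusted p = 0.292) in males and 1.07 (SE 0.35) in females, and Snap25 had -0.71 (SE 0.27, adjusted p = 0.300) in males and 0.74 (SE 0.27) in females. Without male WT 2 the male value of Snap25 was -0.42.

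**Figure D2:**
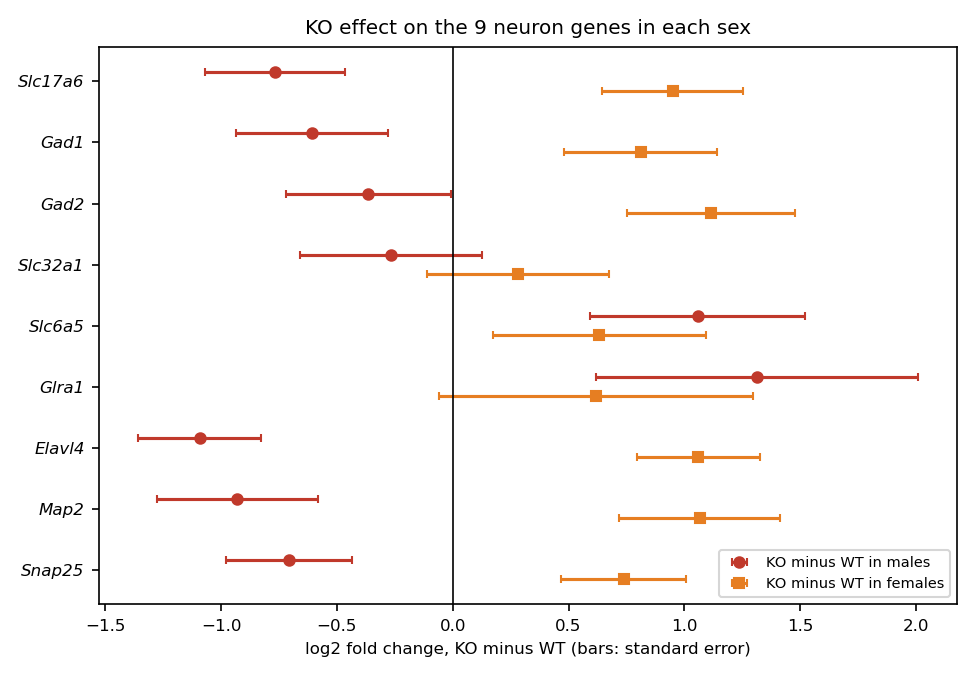
Log2 fold change, KO minus WT, of the 9 genes in males (circles) and females (squares), with bars of 1 standard error from edgeR. The male values of Slc17a6, Gad1, Gad2, Slc32a1, Elavl4, Map2 and Snap25 lie left of 0, from -1.09 to -0.27, all 9 female values lie right of 0, from 0.28 to 1.11, and Slc6a5 and Glra1 lie right of 0 in both sexes.

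In males, 0 of the 9 genes passed an adjusted p of 0.05 in edgeR, where 0% of all tested genes did, and 5 of the 9 and 2684 of the 18104 genes had an unadjusted p under 0.05. DESeq2 called Elavl4 as lower in male KO (log2 fold change -1.06, SE 0.31, adjusted p = 0.0319) among 2.66% of the tested genes, and limma voom called 0 genes. As the 9 genes were chosen with earlier results of these data known, their male p-values are descriptive and no independent test. Both male KO libraries were below both male WT libraries for 5 of the 9 genes, which held for 23.9% of all tested genes, and above them for Slc6a5 alone, which held for 19.7%. The median male log2 fold change was -0.61 over the 9 genes and -0.06 over all tested genes. In females, of all tested genes edgeR called 0%, with 1679 at an unadjusted p under 0.05, DESeq2 called 0.811% and limma voom 0. Both female KO libraries were above both female WT libraries for 6 of the 9 genes (25.9% of all tested genes) and below them for 0 (26.2%), counts that the choice of genes partly set. Without male WT 1 and female WT 2, the libraries rich in adipocyte transcripts, Slc17a6 had -1.09 in males and 0.83 in females, Elavl4 -1.32 and 0.90, and Map2 -1.12 and 0.76.

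The female KO effect minus the male KO effect put the opposite directions in one number. It was 2.15 for Elavl4 (SE 0.38), 1.99 for Map2 (SE 0.49), 1.72 for Slc17a6 (SE 0.43), 1.48 for Gad2 (SE 0.51), 1.44 for Snap25 (SE 0.38) and 1.42 for Gad1 (SE 0.47). It was 0.55 for Slc32a1 (SE 0.56), -0.42 for Slc6a5 (SE 0.65) and -0.70 for Glra1 (SE 0.97). Of all tested genes edgeR called 0% for this difference, with 3031 at an unadjusted p under 0.05, DESeq2 called 2.04% and limma voom 0. The genotypes were apart in opposite directions, with KO lower in males and higher in females, for 5 of the 9 genes and for 8.15% of all tested genes, a count that the choice of genes partly set.

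Over both sexes most of the genes had values near 0. The log2 fold change over both sexes lay between -0.02 and 0.10 for Slc17a6, Gad1, Slc32a1, Elavl4, Map2 and Snap25, and was 0.37 for Gad2 (SE 0.36). It was 0.84 for Slc6a5 (SE 0.33) and 0.96 for Glra1 (SE 0.49). Of all tested genes edgeR called 0%, with 1237 at an unadjusted p under 0.05, DESeq2 called 0.779% and limma voom 0. All 4 KO libraries were above all 4 WT libraries for 0 of the 9 genes (1.68% of all tested genes) and below them for 0 (1.63%).

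The sex difference at equal genotype, female minus male, was negative for 7 of the 9 genes, with the lowest value for Gad2 (-0.77, SE 0.36, adjusted p = 0.565). Slc6a5 had 0.32 (SE 0.33, adjusted p = 0.683) and Glra1 0.29 (SE 0.48, adjusted p = 0.805). None of the 9 genes passed in edgeR, which called 0.0166% of all tested genes, and 0 of the 9 and 1569 genes had an unadjusted p under 0.05. DESeq2 called 0 of the 9 genes and 1.3% of all, and limma voom called 0 of the 9 genes and 5 genes in all.

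Ratios of counts within a library do not depend on how the libraries are scaled to each other. Gad1 had 48.7 and 35.2 counts per 100 counts of Slc17a6 in male KO, against 41.9 and 35.1 in male WT, and 35.7 and 46.5 in female KO, against 50.4 and 40.2 in female WT. Gad1 and Slc17a6 thus kept a ratio within a range of 1.44 times over all 8 libraries, and their groups overlapped in both sexes. Other genes of inhibitory transmission had wider ranges against Slc17a6: 1.78 times for Gad2, 2.72 for Slc32a1, 5.76 for Slc6a5 and 7.59 for Glra1. Elavl4 per 100 counts of Map2 stayed between 17.4 and 25.5.

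Glycine transporter transcripts varied more against the shared inhibitory transporter. Slc6a5 had 48.5 and 44.6 counts per 100 counts of Slc32a1 in male KO, against 17.5 and 20.0 in male WT, and 42.2 and 48.5 in female KO, against 37.1 and 34.5 in female WT. The male WT libraries were the lowest of the 8, and the 4 KO libraries, at 42.2 to 48.5, were all above the 4 WT libraries, at 17.5 to 37.1. This pair was chosen after its values were seen and was not tested. Glra1 kept 9.47 to 16.5 counts per 100 counts of Slc6a5, with overlap in both sexes.

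The remaining pairs within the inhibitory set also varied. Slc32a1 had 81.3 and 47.1 counts per 100 counts of Gad1 in male KO, against 60.3 and 47.5 in male WT, and 63.3 and 63.2 in female KO, against 89.5 and 93.8 in female WT. Female WT was above female KO for this ratio, and the male groups overlapped. Gad2 had 45.5 and 49.4 counts per 100 counts of Gad1 in male KO, against 35.6 and 42.5 in male WT, and 39.9 and 38.6 in female KO, against 32.2 and 31.0 in female WT. Within each sex this ratio was higher in both KO libraries than in both WT libraries, although male WT 2 was above both female KO libraries. Neither ratio was tested, and how often other gene pairs separate the genotypes in this way was not computed.

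**Figure D3:**
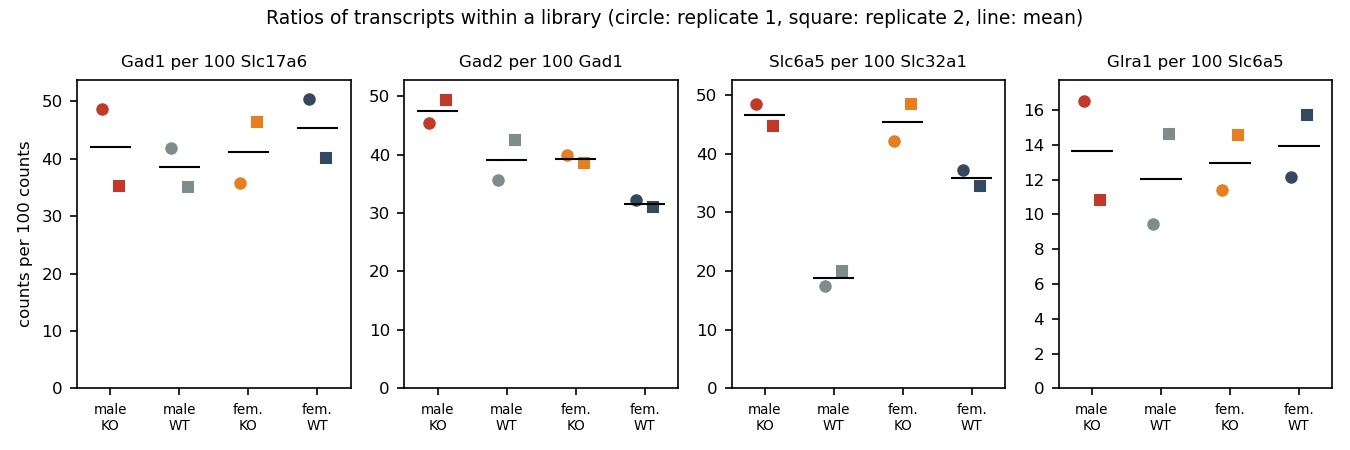
Counts of one transcript per 100 counts of another in each library (linear axes from 0), by group, with circles for replicate 1, squares for replicate 2 and a line at the group mean. Slc6a5 per 100 Slc32a1 is 17.5 and 20.0 in male WT and 34.5 to 48.5 in the other 6 libraries, while Gad1 per 100 Slc17a6 overlaps between all groups.

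The 9 genes fell into patterns that their pairwise distances show, given as the root mean square difference of log2 CPM centred on the mean of the 8 libraries. The closest pairs were Slc17a6 with Snap25 (0.14), Elavl4 with Map2 (0.16) and Gad1 with Snap25 (0.17), and Slc6a5 with Glra1 had 0.24. The farthest pair was Glra1 with Map2 (1.12). Of 14319 named genes at a mean of 1 CPM or more, those nearest to the mean profile of the 9 were Grm3, a metabotropic glutamate receptor gene (0.07), Dnajc6, which encodes auxilin of synaptic vesicle uncoating (0.07), Syn3, a synapsin gene (0.08), Shisa6 (0.09) and Nrg3 (0.09), against a median of 0.54 over the genes searched. The gene nearest to both Slc6a5 (0.16) and Glra1 (0.17) was Tmem178b. Nearest to Map2 was Nova1, a neuronal splicing factor gene (0.07), to Gad1 the potassium channel gene Kcnd3 (0.06), and to Slc32a1 Hap1 (0.06). Nearest to Slc17a6 was Tmem229a (0.09), to Gad2 Unc80 (0.10), to Elavl4 Pak7 (0.12) and to Snap25 Cxxc4 (0.06).

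Other genes of the same pathways were taken from lists of neural genes, of which edgeR called 0 in males and 0 in females, as it did of all tested genes. For comparison, KO minus WT was positive for 45.4% of all tested genes in males and for 52.6% in females. In males, 20 of 29 genes of glutamate release and reception had negative KO minus WT values (median log2 fold change -0.27), and in females 26 of 29 had positive ones (median 0.53). The AMPA receptor subunit gene Gria2 was at 38.9 and 55.7 CPM in male KO, against 68.3 and 167.0 CPM in male WT, and in female KO at 65.1 and 65.3 CPM, against 32.5 and 21.4 CPM in female WT. That is the arrangement of Slc17a6, with no overlap in either sex. Dlg4, the gene of the postsynaptic scaffold PSD-95, had -0.57 (SE 0.28) in males and 0.21 (SE 0.28) in females.

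Of the 28 genes of GABA and glycine release and reception, 21 were negative in males (median -0.18) and 28 positive in females (median 0.57). Gabbr1, a GABA-B receptor subunit gene, had -0.19 (SE 0.30) in males and 0.39 (SE 0.30) in females. Slc6a11, the gene of a glial GABA transporter, had -0.29 (SE 0.33) and 0.51 (SE 0.33), and Abat, the gene of the enzyme that breaks GABA down, had -0.16 (SE 0.29) and 0.39 (SE 0.29). DESeq2 called 0 genes of this list in males and 1 as higher in females, where it called 24 of all genes as higher.

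In the general neuronal lists the medians were negative in males and positive in females, and those of the vesicle and cytoskeletal lists were close to that of all tested genes in males. Synaptic vesicle and SNARE genes were negative in 16 of 30 in males (median -0.03) and positive in 30 of 30 in females (median 0.29). Vamp2, the vesicle partner of Snap25, had -0.32 (SE 0.26) in males and 0.22 (SE 0.26) in females, and Syp, a vesicle membrane protein gene, had -0.21 (SE 0.30) and 0.29 (SE 0.30). Neuronal RNA-binding genes were negative in 13 of 15 in males (median -0.67) and positive in 15 of 15 in females (median 0.43). Of these Rbfox1 had -0.38 (SE 0.23) and 0.77 (SE 0.23), Celf2 -0.03 (SE 0.24) and 0.13 (SE 0.24), and Rbfox2 0.38 (SE 0.25) and 0.06 (SE 0.25). Cytoskeletal genes of neurons were negative in 12 of 22 in males (median -0.12) and positive in 21 of 22 in females (median 0.28), with Stmn2 at -0.61 (SE 0.29) and 0.53 (SE 0.29), Map1b at 0.60 (SE 0.41) and 0.52 (SE 0.41), and Tubb3 at -0.25 (SE 0.35) and 0.05 (SE 0.35). Interneuron transcription factors were negative in 21 of 26 in males (median -0.39) and positive in 17 of 26 in females (median 0.31), with Bcl11a at -0.72 (SE 0.26) and 0.63 (SE 0.26), Isl1 at -0.33 (SE 0.21) and 0.48 (SE 0.21), and Pou4f1 at -0.14 (SE 0.20) and 0.60 (SE 0.20). Isl1 is also a motor neuron marker and Pou4f1 a sensory ganglion marker, so their values are not of interneurons alone.

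Markers of other cells of the cord and ganglia give the setting of these values. Sensory ganglion genes were positive in 15 of 20 in males (median 0.95) and in 15 of 20 in females (median 0.35), so in males they had the other sign from Slc17a6, Elavl4, Map2 and Snap25, with Piezo2, a touch channel gene, at 1.24 (SE 0.34) and 0.37 (SE 0.33). DESeq2 called 4 of the 20 sensory ganglion genes as higher in male KO, where it called 334 of 18104 genes as higher. The summed CPM of that list was 972.4 and 672.6 in male KO, against 605.1 and 506.0 in male WT, and 644.3 and 746.8 in female KO, against 574.7 and 699.1 in female WT. Astrocyte and radial glia genes were negative in 12 of 16 in males (median -0.32) and positive in 14 of 16 in females (median 0.41), and summed to 1834 and 2115 CPM in male KO, against 2759 and 4114 CPM in male WT, and to 2081 and 1792 CPM in female KO, against 1500 and 1548 CPM in female WT. They thus had the order of the neuron genes, and Fabp7, a radial glia gene, was at 232.8 and 590.9 CPM in male KO, against 1255 and 2460 CPM in male WT. The astrocyte gene Glul, at 0.51 in males and -0.16 in females, did not share that order. Motor neuron genes, 12 in all, had medians of -0.25 in males and 0.27 in females, oligodendrocyte lineage genes 0.18 and 0.33, and Schwann cell genes 0.29 and 0.15. The 10 cervical and brachial Hox genes had medians of -1.16 in males and -0.08 in females, and the 11 tested lumbar to caudal ones 1.81 and -0.04. Markers of tissues outside the nervous system also differed between the genotypes. Cartilage genes were positive in 12 of 12 in males (median 0.95) and in 11 of 12 in females (median 0.79), and muscle genes in 11 of 12 in males (median 0.78) and in 10 of 12 in females (median 0.77), so their female medians were close to the 0.81 of the 9 neuron genes and their male medians had the opposite sign. Every gene of the sensory, astrocyte, motor neuron and oligodendrocyte lists was detected in all 8 libraries. The part of cord content, cartilage or muscle content, axial level, depth or mitochondrial share in the neuron values was not tested beyond the alternatives given.

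**Figure D4:**
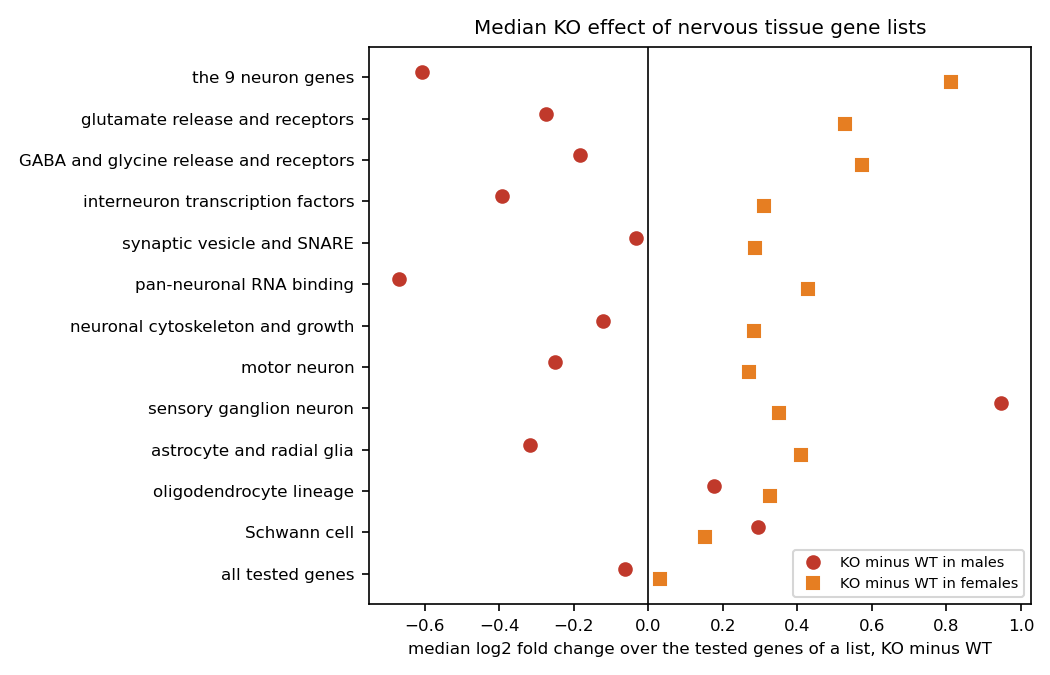
Median log2 fold change, KO minus WT, over the tested genes of each nervous tissue list, in males (circles) and females (squares), with all tested genes in the lowest row. The 9 neuron genes lie at -0.61 in males and 0.81 in females, all tested genes at -0.06 and 0.03, and sensory ganglion genes at 0.95 and 0.35.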

How the data were processed

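The authors deposited a single table of read counts (whole numbers, not normalized) with 1 column for each library. The labels' protocols describe TRIzol extraction of frozen spines and a stranded library kit for polyadenylated RNA. FastQC 1.0.0, MultiQC 1.0.0, HISAT2, featureCounts and mm10 are named in the submitters' processing notes. No source used here gives the annotation or the strand setting. Of 27179 Entrez gene IDs, 25275 took symbols from a RefSeq table (GRCm38.p6) and 18 from GENCODE M21. The 1886 without a name held 0.365% to 1.63% of a library's counts.

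Genes were filtered with filterByExpr (minimum count 10), which left 18104, scaled by TMM, and tested with edgeR 4.0.16 (R 4.3.3) by quasi-likelihood in a fit of 4 group means (4 residual degrees of freedom), or with sex and genotype as additive terms (5). CPM are counts scaled by the TMM library size. Tests are two-sided, with p-values adjusted by the Benjamini-Hochberg method across every tested gene and a threshold of 0.05. The standard error (SE) is the log2 fold change over the square root of F. Alternatives were DESeq2 1.42.0 (which also gave size factors), limma 3.58.1 (voom), no filter on low counts, thinning to equal depth, leaving out mitochondrial genes or taking their share as a covariate, a length match, a replicate block, and leaving out libraries. Lengths are of the longest GENCODE M21 transcript. Log2 CPM used a prior count of 2. Within each group the replicates' counts differed by more than sampling (chi-square over its degrees of freedom, 133 to 661), and all 8 libraries were kept. The fit was tested on simulated data: of 18104 genes, 100 were changed 4-fold in males and 86 of them were recovered, and 100 were changed 2-fold and 5 of them were recovered. In the measured data edgeR called 0 genes in males. There Fabp7 had -2.17 (SE 0.63, adjusted p = 0.247) and Ucp1 had -5.24 (SE 1.71, adjusted p = 0.270). Whether the recovery of 86 holds for the measured libraries was not tested.

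The members and lists were chosen with earlier results of these data known. All 9 members are named, and of other lists the 3 genes with the highest mean CPM, of which those in non-neural lists and some glial ones are left out for space, and some others are not reported here. The genes nearest to the members were ranked by root mean square difference.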

Additional observations from a re-analysis of the deposited data

Results flagged for a closer look

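For 5 of the 9 genes, and for 8.15% of all tested genes, both KO libraries were below both WT libraries in males and above them in females. The female KO effect minus the male KO effect, on the log2 scale, was 2.15 for Elavl4, 1.99 for Map2, 1.72 for Slc17a6, 1.44 for Snap25 and 1.42 for Gad1. The genes were selected on the female values that this difference contains, so it is a description and no test of it is given for them.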

How the results depend on the processing

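Over the alternatives, length match included, the KO minus WT values of the 9 genes changed sign in 3 of 162 cases in males and 2 of 162 in females. These cases include leaving out a library of the other sex, which can hardly move a value within a sex. In males Slc17a6 had -0.77 in the main fit and -0.74 without female WT 2. Such cases make changes of sign look rarer. DESeq2 called 1 of the 9 genes, Elavl4, in males, a description only, since the genes were chosen with earlier results of these data known. The changes of sign in males were Glra1 at -0.0760 with the mitochondrial share as a covariate, and 2 values without 1 library, since leave-one-out values ran from -0.74 to 0.15 for Gad2 and from -0.97 to 0.21 for Slc32a1. In females they were the leave-one-out values of Slc32a1 (-0.0593 to 0.56) and Glra1 (-0.0878 to 1.08). For the female minus male effect 4 of 162 changed sign. DESeq2 called 4 of the 9 genes there, which is no independent evidence, since they were selected on the female values. The mitochondrial covariate gave 0.69 for Slc6a5 and 0.87 for Glra1, and leave-one-out values ran from -0.93 to 0.37 for Slc6a5 and from -1.43 to 0.56 for Glra1. Over both sexes, where values lay near 0, 34 of 162 changed sign. Without the adipocyte-rich WT libraries they were -0.24 for Slc17a6, -0.20 for Gad1, -0.16 for Slc32a1, -0.28 for Map2 and -0.22 for Snap25. Voom gave -0.0514 for Slc32a1 and 0.0197 for Elavl4, thinning -0.00658 for Slc32a1 and -0.00142 for Snap25, the mitochondrial covariate -0.15 for Slc32a1 and 0.23 for Elavl4, leaving out mitochondrial genes 0.00402 for Elavl4, and the length match -0.0675 for Map2 and -0.0597 for Snap25. Leave-one-out values over both sexes ran from -0.16 to 0.45 for Slc17a6, -0.15 to 0.37 for Gad1, -0.19 to 0.25 for Slc32a1, -0.36 to 0.33 for Elavl4, -0.29 to 0.42 for Map2 and -0.20 to 0.26 for Snap25. For female minus male, the mitochondrial covariate gave -0.0813 for Slc6a5 and -0.23 for Glra1, and Slc32a1 ran from -0.36 to 0.0824 without 1 library. The causes were not tested.

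Genes called in edgeR, 0 in the KO comparisons and 3 between the sexes, changed with the tool. DESeq2 called 481 in males, 144 in females, 141 over both sexes, 362 for the difference of effects and 235 between the sexes, and among the other lists 24, 22, 12, 30 and 7. Without the filter 39 genes were called in males, 1 for the difference of effects and 12 between the sexes. Voom called 5 between the sexes. With the mitochondrial covariate 2 were called in females and 9 between the sexes. Without the adipocyte-rich WT libraries 24 were called in females and 1 for the difference of effects. Leave-one-out counts were 0 to 33 in females and 0 to 9 for the difference of effects, the highest without female WT 2, and 2 to 35 between the sexes, the highest without male KO 2.

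The replicate numbers are not said to mark a shared litter, batch or day. With a replicate block 0 genes were called in each KO comparison, 2 between the sexes and 0 of the 9 genes in any. Same-numbered deviations correlated at 0.15 in males and -0.14 in females. The crossed pairing in females, added after seeing the data, called 2 genes in females, 1 over both sexes, 1 for the difference of effects and 15 between the sexes. At 2 libraries a group, most simulated 2-fold changes in males were not called.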
